A study of Mus musculus with 30 samples.

Results

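Fracture callus of diet-induced obese (DIO) mice was compared with callus of lean mice on d10 after tibial fracture. The comparison takes the 3 DIO and the 3 Lean libraries of d10, 6 of the 30 libraries of the series, and uses all genes. Both groups were male C57BL/6J mice, aged 20 weeks at fracture. DIO mice had been kept on a high-fat diet and lean mice on a lean diet, and the labels name no transgene or drug for either group. All of them had an open osteotomy of the right tibial mid-diaphysis with an intramedullary nail. Each library was made from poly(A) RNA of the callus of 1 mouse, after the surrounding soft tissue had been removed. DIO is a model of obesity by diet, so body weight, diet and metabolic state cannot be told apart here.

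The tibial callus heals through cartilage. Chondrocytes that are driven by the transcription factor SOX9 fill the fracture gap with type II collagen and aggrecan. They then enlarge, make type X collagen, and are replaced by woven bone through osteoclasts, blood vessels and osteoblasts. Indian hedgehog (Ihh) from maturing chondrocytes acts through its receptor Ptch1 and the transcription factor Gli1. The comparison asks how the cartilage and bone genes of a callus at this stage differ between diets, and whether fat-cell genes differ.

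The 6 libraries held 13247122 to 20489678 counts, and 17495 to 17939 genes had at least 3 counts. Levels are given in CPM, read counts scaled to library size with TMM factors, where 1 CPM stood for 14.1 to 18.3 reads. Callus genes of cartilage (Col2a1), bone (Sp7) and osteoclasts (Acp5) were present in every library. Lean mouse 1 stood apart from the other 5. Its score on the first principal component, which held 61.11% of the variance, was -102.7, against 0.39 to 34.2 in the others. Its TMM factor was 0.856 against 1.01 to 1.07, and its mitochondrial share was 0.691% against 1.01% to 1.88%. Its summed adult skeletal muscle genes were at 1922 CPM against 18294 to 45261, and its summed cartilage collagens at 62154 CPM against 4786 to 14845. List medians and the differences of the main genes are therefore given with and without this library.

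Of 15341 genes tested, 0 (0.0%) passed an adjusted p of 0.05 in the edgeR quasi-likelihood test with Benjamini-Hochberg adjustment. An unadjusted p under 0.05 was reached by 1082 genes, of which 447 (2.91%) were higher and 635 (4.14%) lower in DIO callus. The lowest adjusted p was 0.686. DESeq2, the tool that the authors used for single comparisons, called 56 of 16892 genes, 8 higher (0.0474%) and 48 lower (0.284%). On simulated data DESeq2 made 48 false calls and edgeR 12, so DESeq2 calls and adjusted p below are to be read with caution. Without Lean mouse 1, edgeR called 10 of 15766 genes, with 4 higher (0.0254%) and 6 lower (0.0381%). The differences below are thus values with their errors, and none of them passed the edgeR test with all 6 libraries. In bulk callus RNA, fewer cells of a type and less RNA per cell cannot be told apart.

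Cartilage collagens form the fibrils of the soft callus. All 7 tested had a lower mean in DIO callus, and in all 7 the groups did not overlap, against 6.88% of all genes tested. An unadjusted p under 0.05 was reached by 6 of them, against 4.14% of all genes. Their median log2 difference (DIO minus Lean) was -2.75, beside 0.02 over all genes, and -1.74 without Lean mouse 1. Without it the groups again did not overlap in all 7, against 8.77% of all genes. Summed over the list, Lean mice had 62154, 14845 and 13158 CPM and DIO mice 4786, 8436 and 5932 CPM.

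Col2a1 (chromosome 15, 97975602 to 98004695, minus strand, GRCm38) encodes the main collagen of cartilage. It stood at 42678, 8120 and 6520 CPM in the Lean mice and at 1092, 3686 and 1859 CPM in the DIO mice. Every DIO mouse lay below every Lean mouse, and Lean mouse 1 was far above the other two. The log2 difference was -3.11 ± 0.78 (SE, n = 3 per group), with an adjusted p of 0.686 in the edgeR test. Without Lean mouse 1 it was -1.74, with an adjusted p of 0.0877 in edgeR.

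Type IX collagen sits on the surface of these fibrils. Col9a1 was at 1618, 479 and 445 CPM in Lean mice and at 44.1, 196 and 138 CPM in DIO mice. Col9a2 was at 4464, 1099 and 710 CPM against 118, 408 and 265 CPM. Col9a3 was at 4321, 1022 and 640 CPM against 77.9, 360 and 209 CPM. For all 3 chains DIO mouse 1 was the lowest library and Lean mouse 1 the highest. Their log2 differences were -2.75 ± 0.65, -2.99 ± 0.72 and -3.21 ± 0.79 (SE), and -1.88, -1.79 and -1.96 without Lean mouse 1.

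The remaining collagens of the list, chosen for the text after their values were seen, differed less. Col11a1 was at 2471, 1318 and 1920 CPM in Lean mice and at 995, 1131 and 1270 CPM in DIO mice. Col11a2 was at 5737, 2587 and 2697 CPM against 2334, 2505 and 2069 CPM. Col27a1 was at 863, 219 and 226 CPM against 124, 149 and 123 CPM. The gap between the groups was narrow for both type XI chains, with log2 differences of -0.75 ± 0.27 and -0.67 ± 0.33 (SE). With Lean mouse 1 left out these were -0.53 and -0.21, and Col27a1 was at -0.77 in place of -1.72.

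**Figure D1:**
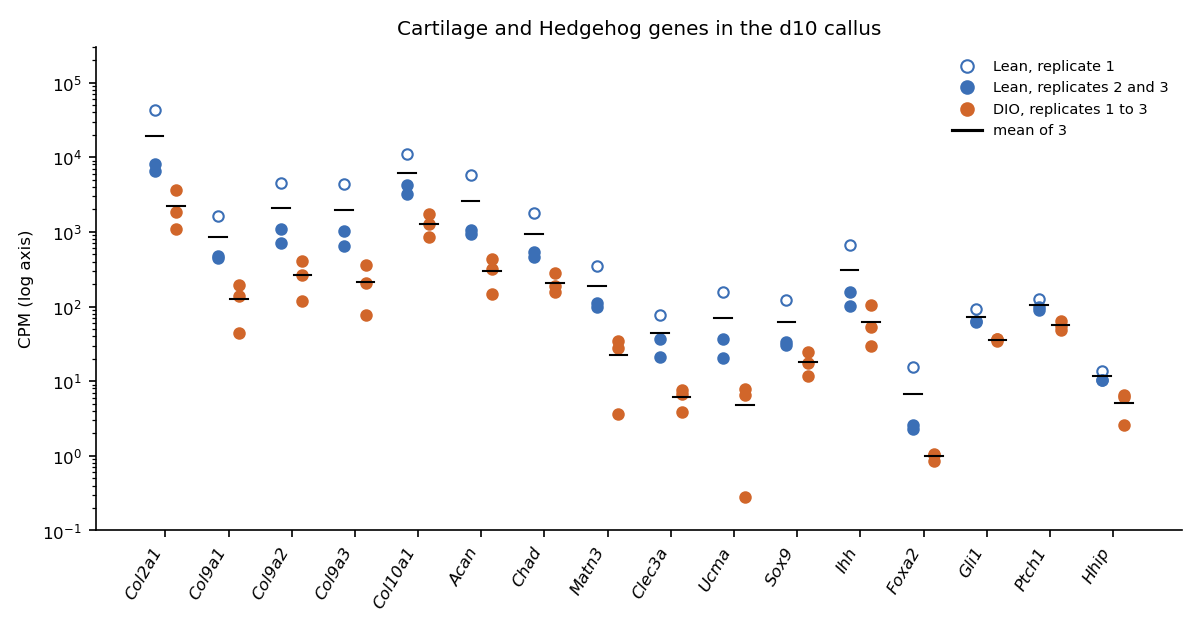
Level of 16 cartilage and Hedgehog genes in each d10 library (CPM, log axis), with Lean and DIO mice side by side, bars at the group means and Lean mouse 1 drawn as an open symbol. For Col2a1 the DIO mice lie between 1092 and 3686 CPM, below the 6520 CPM of the lowest Lean mouse.

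Cartilage matrix proteins are the proteoglycans, matrilins and small secreted proteins that fill the space between the fibrils. Of 25 tested, 22 had a lower mean in DIO callus, 18 with an unadjusted p under 0.05 (4.14% of all genes), and in 14 the groups did not overlap (6.88% of all genes). The median log2 difference was -2.13, and -1.26 without Lean mouse 1, where 15 of the 25 did not overlap (8.77% of all genes). DESeq2 called 3 of them lower, against 0.284% of all genes. EdgeR without Lean mouse 1 called 2 lower, against 0.0381% of all genes.

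Acan (chromosome 7, 79053483 to 79115099), the large proteoglycan that holds water in cartilage, was at 5835, 1050 and 938 CPM in Lean mice and at 147, 428 and 319 CPM in DIO mice. The groups did not overlap. The log2 difference was -3.13 ± 0.75 (SE), with an adjusted p of 0.686, and without Lean mouse 1 it was -1.75 with an adjusted p of 0.0487, both in edgeR. Matn3, a matrilin that links matrix fibrils, was at 354, 98.5 and 110 CPM against 3.68, 35 and 27.9 CPM. Chad, a leucine-rich protein that binds chondrocytes to collagen, was at 1796, 534 and 456 CPM against 186, 281 and 156 CPM. Both were lower in every DIO mouse than in any Lean mouse.

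Clec3a (chromosome 8, 114418086 to 114425846), a cartilage lectin, was at 76.9, 21.1 and 36.2 CPM in Lean mice and at 3.89, 7.69 and 6.81 CPM in DIO mice. It was the only gene of the list called both by DESeq2 and by edgeR without Lean mouse 1. Its log2 difference was -2.86 ± 0.48 (SE) with an adjusted p of 0.686 in edgeR, and -2.23 with an adjusted p of 0.0134 without Lean mouse 1. Ucma, a secreted protein of cartilage, was at 156, 36.9 and 20.5 CPM against 0.283, 7.82 and 6.48 CPM. Epyc, a small proteoglycan, was at 17.5, 5.23 and 3.45 CPM against 0.212, 1.79 and 1.23 CPM. The groups were separate for both, and DIO mouse 1 held only a few reads of either.

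Because these genes were lower together, the 100 bases before the RefSeq start of 5 of them are shown, from GRCm38.p6, all on the plus strand. Capitals mark TATAAA, the letters of a TATA box.
Acan, chr7:79053126-79053225: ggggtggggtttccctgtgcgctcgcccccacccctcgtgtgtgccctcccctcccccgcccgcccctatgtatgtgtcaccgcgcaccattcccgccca
Chad, chr11:94564947-94565046: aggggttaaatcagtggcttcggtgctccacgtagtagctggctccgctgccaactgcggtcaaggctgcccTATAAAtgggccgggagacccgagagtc
Col9a1, chr1:24177510-24177609: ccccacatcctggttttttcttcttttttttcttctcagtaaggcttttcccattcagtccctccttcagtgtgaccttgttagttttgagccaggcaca
Col10a1, chr10:34389881-34389980: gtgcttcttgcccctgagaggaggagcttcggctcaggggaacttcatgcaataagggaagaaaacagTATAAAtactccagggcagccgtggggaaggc
Matn3, chr12:8947829-8947928: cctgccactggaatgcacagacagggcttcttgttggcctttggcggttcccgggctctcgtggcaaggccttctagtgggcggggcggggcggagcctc

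TATAAA was present in Chad, 28 bases before the start, and in Col10a1, 32 bases before it. Col10a1 is a gene of the hypertrophy list and is in neither list counted next. Col9a1 had 2 windows, and the first by position is shown. Of the 7 cartilage collagens 5 matched the promoter table, with 6 windows, and 0 of these held TATAAA. Of the 25 matrix proteins 17 matched, and 1 of their 20 windows (5.0%) held it, against 1827 of 32851 windows (5.56%) of all genes. ACAATGG, letters bound by SOX proteins, was found in 0 windows of both lists and in 421 windows (1.28%) of all genes. Both strands were searched for each motif, and a match is a description of these letters only.

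Hypertrophic chondrocytes make type X collagen and mineralise their matrix. Of 17 genes of hypertrophy, 15 had a lower mean in DIO callus, 6 with an unadjusted p under 0.05 and 6 with no overlap, against 4.14% and 6.88% of all genes. The median log2 difference was -0.35, and -0.25 without Lean mouse 1. Col10a1 (chromosome 10, 34389981 to 34397085), the type X collagen of hypertrophic cartilage, was at 10973, 3234 and 4229 CPM in Lean mice and at 858, 1721 and 1278 CPM in DIO mice. The groups did not overlap, and the log2 difference was -2.26 ± 0.49 (SE) with an adjusted p of 0.686 in edgeR. Without Lean mouse 1 it was -1.55 with an adjusted p of 0.0405 in edgeR. Exons of Col10a1 overlap Nt5dc1 on the opposite strand, so its counts are uncertain if strand was not used.

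Mmp13, the collagenase of late hypertrophic cartilage and bone, gave another picture. It was at 3086, 2281 and 2681 CPM in Lean mice and at 2429, 2192 and 3189 CPM in DIO mice, and the groups overlapped. The log2 difference was -0.04 ± 0.24 (SE), with an adjusted p of 0.976 in edgeR, and 0.055 without Lean mouse 1. Foxa2, a transcription factor of hypertrophic differentiation, was at 15.3, 2.59 and 2.3 CPM against 0.849, 1.06 and 1.04 CPM. Its log2 difference of -2.77 was -1.32 without Lean mouse 1.

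Regulators of chondrocytes had a median log2 difference of -0.63, and of -0.27 without Lean mouse 1. Of 22 tested, 18 had a lower mean in DIO callus, 10 with an unadjusted p under 0.05 and 8 with no overlap, against 4.14% and 6.88% of all genes. Sox9, the master regulator of the lineage, was at 121, 30.4 and 33.7 CPM in Lean mice and at 11.7, 24.4 and 17.5 CPM in DIO mice. Its log2 difference of -1.78 ± 0.53 (SE) was -0.85 without Lean mouse 1, with an adjusted p of 0.332 in edgeR. Gdf5, a growth factor of joint and early cartilage, was at 53.4, 7.08 and 14.1 CPM against 3.61, 8.75 and 4.86 CPM, and the groups overlapped. Its log2 difference was -2.11, and -0.90 without Lean mouse 1.

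Among genes of the Hedgehog pathway, 4 named with their values known are given here. The ligand Ihh was at 661, 156 and 102 CPM in Lean mice and at 29.8, 105 and 53.2 CPM in DIO mice, and DIO mouse 2 lay just above Lean mouse 3. Its log2 difference of -2.29 was -1.05 without Lean mouse 1. The target and transcription factor Gli1 (chromosome 10, 127329882 to 127341974, minus strand) was at 92.1, 61.6 and 63.9 CPM against 34.2, 36.6 and 36.8 CPM. The receptor Ptch1, also a target, was at 124, 89.6 and 98.7 CPM against 54.4, 48.2 and 65 CPM.

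For Gli1 and Ptch1 every DIO mouse lay below every Lean mouse, and Lean mouse 1 was less far from the other Lean mice than for the cartilage genes. Their log2 differences were -1.02 ± 0.19 and -0.90 ± 0.19 (SE), with an adjusted p of 0.686 for both in edgeR. Without Lean mouse 1 they were -0.82 and -0.77, with adjusted p of 0.0889 and 0.122 in edgeR. DESeq2 gave them adjusted p of 0.0124 and 0.0268. Hhip, a decoy receptor and target, was at 13.9, 10.5 and 10.3 CPM against 2.62, 6.23 and 6.61 CPM. Exons of Gli1 overlap Arhgap9 on the opposite strand, and those of Hhip another gene, so their counts are uncertain if strand was not used, as are those of Col9a3, Epyc, Gdf5, P3h2, Smpd3, Cdkn1c, Runx2, Acp5, Ttn and Myh7. Ptch1 and Myh8 share near-identical stretches with genes elsewhere.

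Sulphated sugar chains make cartilage stiff under load. Of 36 genes of glycosaminoglycan synthesis, 30 had a lower mean in DIO callus and 8 had an unadjusted p under 0.05, against 4.14% of all genes (median log2 difference -0.27, and -0.15 without Lean mouse 1). Papss2, which makes the sulphate donor, was at 180, 60.4 and 70.4 CPM in Lean mice and at 36.8, 42.2 and 49.7 CPM in DIO mice. Chst12, a chondroitin sulphotransferase, was at 195, 68 and 44.7 CPM against 35.5, 40.7 and 32.9 CPM. For neither gene did the groups overlap. Leaving out Lean mouse 1, the log2 differences were -0.62 for Papss2 and -0.64 for Chst12, and that of Papss2 was -1.27 with it.

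Collagen processing enzymes fold and crosslink collagen. Of 32 tested, 30 had a lower mean in DIO callus, 4 had an unadjusted p under 0.05 (4.14% of all genes), and the median log2 difference was -0.39, and -0.18 without Lean mouse 1. Loxl4, a crosslinking oxidase, was at 451, 136 and 183 CPM against 69, 97.1 and 88.4 CPM. P3h2, a prolyl hydroxylase, was at 159, 32.9 and 35 CPM against 16.8, 24 and 26.5 CPM. Pcolce2, an enhancer of procollagen cleavage, was at 536, 143 and 132 CPM against 43.4, 87.5 and 94.9 CPM. For none of the 3 did the groups overlap, and Lean mouse 1 was well above the other Lean mice. Their log2 differences of -1.60, -1.75 and -1.85 were -0.92, -0.61 and -0.89 without it.

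**Figure D2:**
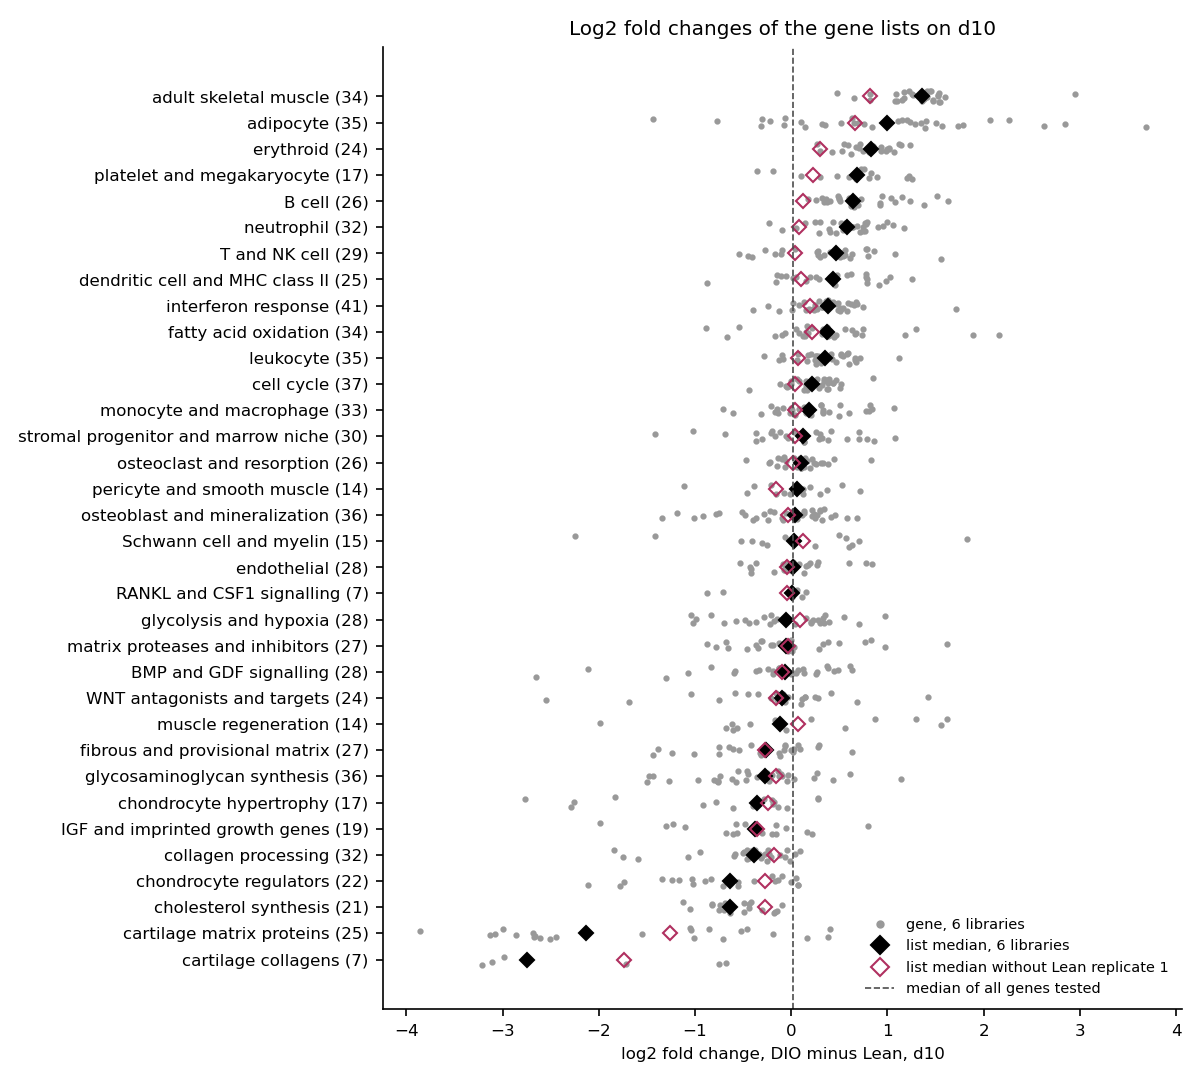
Log2 difference (DIO minus Lean) of each tested gene on d10 for 34 gene lists. A black diamond marks the list's median, an open diamond the median without Lean mouse 1 and a dashed line the median of all genes (0.02). Cartilage collagens (-2.75) and cartilage matrix proteins (-2.13) lie lowest and adult skeletal muscle (1.36) highest.

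Osteoblast genes stood near the median of all genes. Of 36 tested, 19 had a higher and 17 a lower mean in DIO callus, and the median log2 difference was 0.04, and -0.04 without Lean mouse 1. Runx2, the transcription factor that opens the lineage, was at 82.7, 93.7 and 116 CPM in Lean mice and at 117, 82.5 and 104 CPM in DIO mice. Sp7, which acts after it, was at 361, 462 and 419 CPM against 430, 478 and 451 CPM. The groups overlapped for both.

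Of the genes of mineralised matrix, Ibsp and Bglap overlapped between the groups. Ibsp, a sialoprotein of new bone, was at 10008, 6026 and 7216 CPM in Lean mice and at 4721, 5760 and 7180 CPM in DIO mice. Bglap, the osteocalcin gene, was at 199.6, 402 and 480 CPM against 389, 527 and 382 CPM. Bglap shares near-identical stretches with Bglap2 and Bglap3, so its counts are uncertain. Of the list, 6 genes were lower and 1 was higher with an unadjusted p under 0.05, against 4.14% and 2.91% of all genes. Smpd3, a sphingomyelinase needed for mineralisation, was among those lower, at 1352, 545 and 498 CPM against 309, 360 and 383 CPM, with a log2 difference of -1.19, and -0.59 without Lean mouse 1. Omd, osteomodulin, was at 68.9, 61.7 and 56.9 CPM against 30, 41 and 40.4 CPM, though it shares repeated sequence with many genes.

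Osteoclasts resorb cartilage and bone. Of 26 of their genes, 0 reached an unadjusted p under 0.05 in the edgeR test, 0 were called by DESeq2, and in 0 of them did the groups separate. At that p, 2.91% of all genes were higher and 4.14% lower, and in 7.33% and 6.88% the groups did not overlap. DESeq2 called 0.0474% of all genes higher and 0.284% lower, so 0 of 26 is near that share. The median log2 difference of the 26 was 0.10, and 0.02 without Lean mouse 1. Acp5, the acid phosphatase of osteoclasts, was at 4586, 5028 and 5729 CPM in Lean mice and at 4943, 5010 and 6348 CPM in DIO mice. Ctsk, their main collagen-cleaving protease, was at 2620, 3397 and 4648 CPM against 3797, 3766 and 5215 CPM. Tnfsf11, which encodes the osteoclast-inducing ligand RANKL, was at 30.8, 16 and 27.2 CPM against 16.7, 14.3 and 14.3 CPM. The ranges overlapped for all 3.

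WNT inhibitors split in direction. Frzb, a secreted inhibitor made by chondrocytes, was at 371, 146 and 124 CPM in Lean mice and at 48.8, 77.5 and 73 CPM in DIO mice. Sfrp5, of the same family, was at 22.4, 14.8 and 2.68 CPM against 2.05, 3.18 and 1.56 CPM. Dkk1, which blocks the WNT co-receptor, was at 30.3, 53.1 and 52.4 CPM against 72.1, 78.4 and 67.3 CPM. Frzb was lower and Dkk1 higher in every DIO mouse, while Sfrp5 overlapped. DESeq2 gave Frzb and Sfrp5 adjusted p of 0.00674 and 0.0108, and edgeR gave 0.686 for both. Their log2 differences were -1.69 and -2.55. Without Lean mouse 1 they were -1.04 and -1.95, with adjusted p of 0.0753 and 0.211 in edgeR. That of Dkk1 was 0.68, and 0.45 without this library. The 24 genes of the list had a median log2 difference of -0.10, and -0.15 without Lean mouse 1. The 28 genes of BMP and GDF signalling had -0.07, and -0.09.

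Growth genes of the IGF axis and the imprinted network mostly had lower means in DIO callus. Of 19, 16 had a lower mean, 6 had an unadjusted p under 0.05 and 8 had no overlap, against 4.14% and 6.88% of all genes. The median log2 difference was -0.38 and differed little without Lean mouse 1, at -0.35. Cdkn1c, an imprinted cell cycle inhibitor, was at 140, 91.1 and 59.2 CPM in Lean mice and at 32.5, 50.5 and 40.8 CPM in DIO mice. Peg3, a paternally expressed zinc finger gene, was at 244, 129 and 128 CPM against 62.4, 79 and 91 CPM. Igfbp3, which binds IGFs, was at 110, 79.8 and 125 CPM against 71.9, 65.3 and 60.2 CPM. The groups were separate for all 3, and DESeq2 called Cdkn1c and Peg3 with adjusted p of 0.0368 and 0.0417. In edgeR both had an adjusted p of 0.686, and of 0.165 without Lean mouse 1. Their log2 differences were -1.23 and -1.11, and -0.87 and -0.74 without it.

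Fat-cell genes mostly had higher means in DIO callus. Of 35 adipocyte genes, 28 had a higher mean, 14 with an unadjusted p under 0.05 against 2.91% of all genes. In 12 the groups did not overlap with DIO higher, against 7.33% of all genes. Over the list, the median log2 difference was 0.99, and 0.66 without Lean mouse 1, where 13 did not overlap, against 9.12% of all genes. Summed, the list was at 1232, 1666 and 1688 CPM in Lean mice and at 2733, 2205 and 1823 CPM in DIO mice.

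Adipoq (chromosome 16, 23146536 to 23158028), the fat-cell hormone adiponectin, was at 1.26, 8.93 and 10.1 CPM in Lean mice and at 44.9, 20.7 and 19.3 CPM in DIO mice. Every DIO mouse lay above every Lean mouse. The log2 difference was 2.06 ± 0.64 (SE) with an adjusted p of 0.686, and 1.56 with an adjusted p of 0.0898 without Lean mouse 1, both in edgeR. Cidec, a lipid droplet protein, was at 0, 0.616 and 2.57 CPM against 27.6, 9.14 and 4.99 CPM. Retn, the hormone resistin, was at 0.285, 0.185 and 0.712 CPM against 4.53, 2.78 and 1.43 CPM. Its adjusted p was 0.0304 in DESeq2, 0.686 in edgeR and 0.191 in edgeR without Lean mouse 1.

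Fabp4, the fatty acid carrier of fat cells, was at 55.1, 137 and 136 CPM in Lean mice and at 240, 231 and 183 CPM in DIO mice. It is also made by endothelial cells, whose 28 genes had a median log2 difference of 0.01, and -0.04 without Lean mouse 1. Which cells the difference in Fabp4 came from was not tested. Pparg, the transcription factor of the fat lineage, was at 3.82, 7.88 and 9.42 CPM against 10.2, 12.6 and 10 CPM. Both were higher in every DIO mouse, by little for Pparg (log2 difference 0.64 ± 0.34, SE, and 0.33 without Lean mouse 1). Lep, the hormone leptin, fell under the filter on low counts and had 0, 0 and 2 reads in Lean mice against 24, 16 and 5 reads in DIO mice. It was not tested on d10.

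Genes of fatty acid oxidation had a higher mean in 28 of 34, with an unadjusted p under 0.05 in 10 and no overlap in 14, against 2.91% and 7.33% of all genes. Their median log2 difference was 0.37, and 0.22 without Lean mouse 1. Fabp3 (chromosome 4, 130308595 to 130315463), the fatty acid carrier of muscle and heart, was at 21.1, 68.3 and 52.8 CPM in Lean mice and at 139, 235 and 154 CPM in DIO mice. The groups were well apart. The log2 difference was 1.89 ± 0.40 (SE) with an adjusted p of 0.686, and 1.53 with an adjusted p of 0.0308 without Lean mouse 1, both in edgeR. DESeq2 gave an adjusted p of 0.000469. Fabp3 overlaps Zcchc17 on the opposite strand and has a near-identical pseudogene, so its counts are uncertain.

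Acadm, which starts the oxidation of medium chains, was at 31.3, 56.1 and 61 CPM in Lean mice and at 78, 93 and 78.8 CPM in DIO mice. Hadh, a later step, was at 39.1, 59 and 63.6 CPM against 76.7, 97.5 and 81.9 CPM. The groups did not overlap for either gene.

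Cholesterol synthesis had a lower mean in all 21 genes tested, 6 with an unadjusted p under 0.05, against 4.14% of all genes. Their median log2 difference was -0.64, but -0.27 without Lean mouse 1, where 18 of the 21 had a lower mean.

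**Figure D3:**
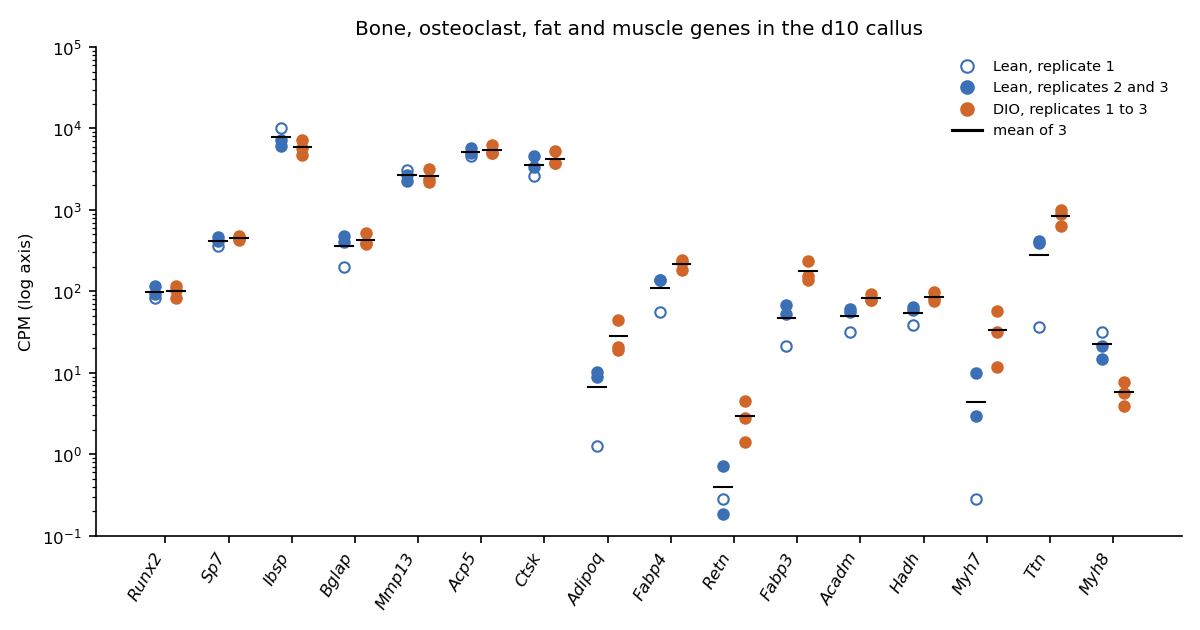
Level of 16 bone, osteoclast, fat, fatty acid oxidation and muscle genes in each d10 library (CPM, log axis), drawn as for the cartilage genes. Runx2, Sp7 and Acp5 overlap between diets, and Fabp3 lies at 139 to 235 CPM in DIO mice above 21.1 to 68.3 CPM in Lean mice.

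Skeletal muscle lies against the tibial callus, and its genes differed between the libraries. All 34 adult muscle genes tested had a higher mean in DIO callus, 5 with an unadjusted p under 0.05 and 25 with no overlap, against 2.91% and 7.33% of all genes. Over the list, the median was 1.36 on the log2 scale. Without Lean mouse 1 it was 0.82, 30 of the 34 had an unadjusted p under 0.05, against 5.03% of all genes in either direction, and 25 did not overlap, against 9.12%. The summed list was at 1922, 25625 and 18294 CPM in Lean mice and at 37119, 45261 and 33741 CPM in DIO mice. Several genes of fatty acid oxidation, among them Fabp3, are also made by muscle. The part of the muscle genes in those results was not tested.

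Ttn, the giant spring of the sarcomere, was at 36.5, 389 and 416 CPM in Lean mice and at 998, 899 and 643 CPM in DIO mice. Myh7, the slow myosin, was at 0.285, 9.85 and 2.96 CPM against 11.7, 31.7 and 57 CPM, and shares sequence with Myh6. Myh8, the perinatal myosin of regenerating fibres (chromosome 11, 67277124 to 67308634), went the other way, at 32.1, 21.6 and 14.9 CPM against 3.96, 7.69 and 5.58 CPM. The groups did not overlap for any of the 3. Myh8 had a log2 difference of -1.99 ± 0.35 (SE), with an adjusted p of 0.686 in edgeR, 0.0504 in edgeR without Lean mouse 1 and 0.000114 in DESeq2. Its list, muscle regeneration, split in direction. Of 14 tested, 6 had a higher and 8 a lower mean in DIO callus. In 2 the groups did not overlap with DIO higher and in 2 with DIO lower, against 7.33% and 6.88% of all genes. Summed, the list was at 313, 694 and 666 CPM in Lean mice and at 913, 1051 and 800 CPM in DIO mice.

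The size of the difference in blood and immune lists turned on single Lean mice. Median log2 differences were 0.35 for leukocytes, 0.58 for neutrophils, 0.64 for B cells and 0.83 for erythroid cells. Without Lean mouse 1 they were 0.07, 0.08, 0.13 and 0.29, and without Lean mouse 2 they were 0.51, 1.41, 1.39 and 2.71. Without Lean mouse 3 the erythroid median was 0.47. The summed neutrophil genes were at 476, 6689 and 3201 CPM in Lean mice and at 3085, 5167 and 6125 CPM in DIO mice, so Lean mouse 1 lay far below the rest. Its B cell genes were at 111 CPM against 690 to 927 CPM, and its erythroid genes at 657 CPM against 1745 to 5729 CPM. Ptprc, the common leukocyte antigen CD45, was at 16.7, 52.5 and 59.1 CPM against 78.9, 50.2 and 63.1 CPM.

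Interferon response genes had a higher mean in 38 of 41, with 2 at an unadjusted p under 0.05, against 2.91% of all genes. Their median log2 difference was 0.39, and 0.20 without Lean mouse 1. Cxcl9, a chemokine induced by interferon gamma, was at 1.65, 3.08 and 3.56 CPM in Lean mice and at 14.5, 8.81 and 4.02 CPM in DIO mice. The groups did not overlap, and DIO mouse 3 lay close to the Lean mice.

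**Figure D4:**
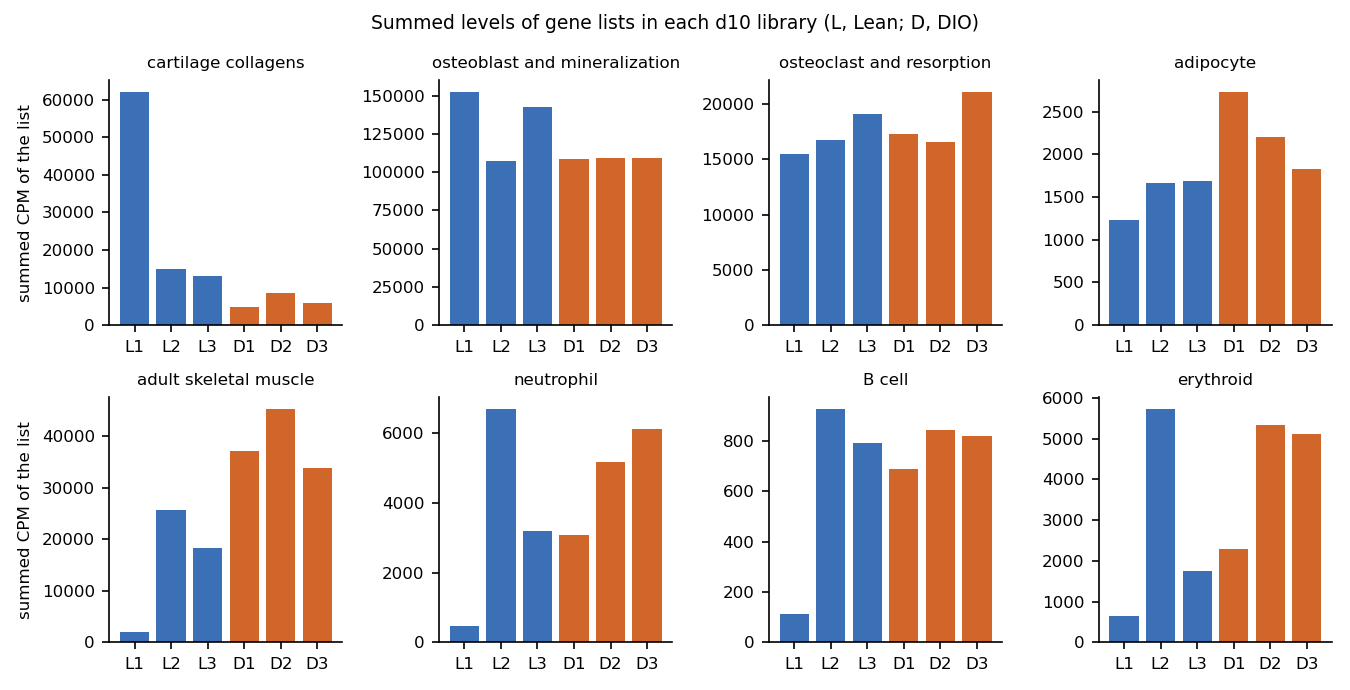
Summed level of 8 gene lists in each d10 library (CPM, bars from 0). Lean mouse 1 has the highest cartilage collagens (62154 CPM) and the lowest adult skeletal muscle genes (1922 CPM).

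Genes called once Lean mouse 1 was left out are named here after their values were seen, where they are not given above. Lower in DIO callus were Aldh1a3, an enzyme of retinoic acid synthesis, Scube1, a secreted EGF-domain protein, and Meltf, a melanotransferrin of cartilage. Aldh1a3 was at 142, 65.8 and 75.1 CPM in Lean mice and at 14.6, 29.7 and 22.2 CPM in DIO mice. Scube1 was at 271, 58.2 and 63.9 CPM against 21.7, 28.6 and 24.4 CPM. Meltf was at 123, 23.7 and 18.3 CPM against 6.93, 8.28 and 8.95 CPM.

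None of these 3 overlapped, and Lean mouse 1 was the highest library for each. Higher in DIO callus were Mylk4, a kinase, at 1.48, 30.9 and 29.8 CPM against 92.8, 73 and 57.6 CPM, and Fbxo40, a ubiquitin ligase of muscle, at 2.62, 30.4 and 25.4 CPM against 62.2, 58.6 and 57.2 CPM. BC048679 was at 0, 0.123 and 0.274 CPM against 2.55, 5.1 and 2.53 CPM. Of the 10 genes, 4 were also called by DESeq2 on all 6 libraries.

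Levels over the days are given for a few of these genes. In the fit of all 30 libraries, Col2a1 had a median of 22060 CPM on d7 and 2008 CPM on d10 in DIO callus. In lean callus the medians were 3207 CPM on d7 and 8847 CPM on d10. DIO medians were thus above Lean on d7 and below on d10. Acan went from 3134 to 345 CPM in DIO callus and from 605 to 1145 CPM in lean callus. Col10a1 went from 1676 to 1381 CPM and from 901 to 4639 CPM. Gli1 went from 76.5 to 39.7 CPM and from 62.3 to 70.1 CPM. Adipoq took the opposite course, from 5.16 to 22.6 CPM in DIO callus and from 22.2 to 9.73 CPM in lean callus.

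Whether the diet difference itself changed from d7 to d10 was tested over the 12 libraries of both days. Of 16348 genes, edgeR called 66 upward (0.404%) and 217 downward (1.33%). Downward calls held 5 of 7 cartilage collagens, 13 of 26 cartilage matrix proteins, 4 of 24 chondrocyte regulators and 0 of 17 hypertrophy genes. They were not confined to these lists. They also held 11 of 28 genes of glycolysis and hypoxia, 9 of 32 of collagen processing and 7 of 37 of glycosaminoglycan synthesis. Upward calls held 0 genes of each of these lists and lay in others. Among them were 6 of 26 osteoclast genes, 4 of 36 osteoblast genes and 3 of 41 interferon response genes, against 0.404% of all genes. For the osteoclast list the median log2 diet difference was -0.99 on d7 and 0.10 on d10. Col10a1 and Gli1 did not pass, with adjusted p of 0.0757 and 0.124 in edgeR. The count of calls was 0 when any of 6 of the 12 libraries was left out in turn, which were Lean mice 1 and 2 and DIO mouse 2 of d7 and the 3 DIO mice of d10. It was 118 without DIO mouse 1 of d7, 473 without Lean mouse 2 of d10 and 511 without Lean mouse 3 of d10. For Col2a1 the log2 diet difference was 1.95 on d7, and its change to d10 was -5.05, with an adjusted p of 0.0411 in edgeR.

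**Figure D5:**
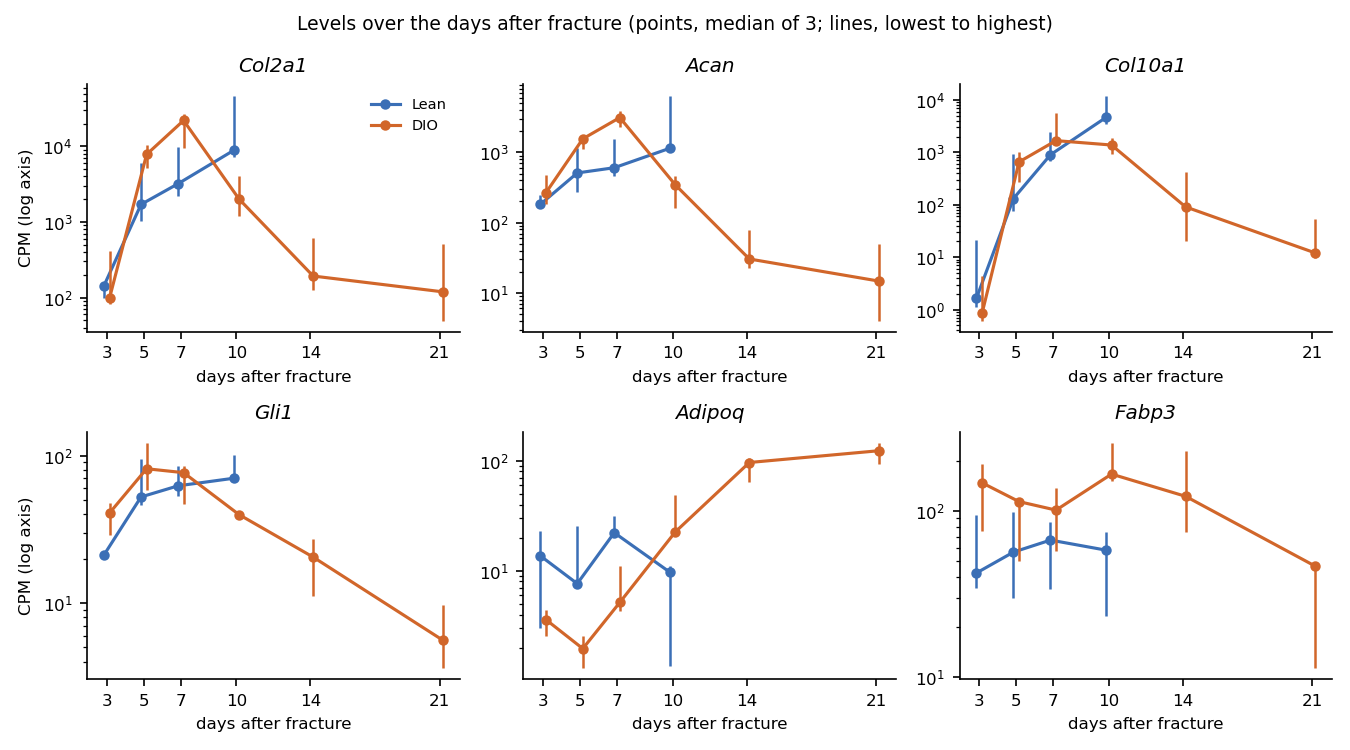
Level of Col2a1, Acan, Col10a1, Gli1, Adipoq and Fabp3 by day after fracture (CPM, log axis), with the median as a line and the lowest to highest of 3 mice as a bar for each diet. Col2a1 peaks on d7 in DIO callus (22060 CPM) and is highest on d10 in lean callus (8847 CPM), and Lean calli of later days were not analysed here.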

How the data were processed

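The authors trimmed the reads with BBDuk, aligned them to GRCm38 with HISAT2 2.1.0 and counted them per gene with HTSeq; its version, strand option and annotation are not given in the sources used here. They deposited raw counts for 43629 genes without normalization. Columns were matched to samples by label, and 0 columns of no sample were used. Everything else was computed here in R 4.3.3 with edgeR 4.0.16 and DESeq2 1.42.0 and in Python 3.11.15.

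The 6 d10 libraries were scaled with TMM factors, filtered with filterByExpr, and tested with the two-sided quasi-likelihood test of edgeR, with Benjamini-Hochberg adjustment and a threshold of 0.05. The change of the diet difference from d7 to d10 was tested over 12 libraries. Labels describe the libraries as biological repeats. On simulated data with 200 changed genes, the d10 test found 97, with 12 false calls. The 97 were 22 of 100 at 2-fold and 75 of 100 at 4-fold. DESeq2 found 125, with 48 false calls. The simulation drew each gene independently and held no library set apart like Lean mouse 1. All pairs of same-group libraries differed by more than sampling noise, with chi-square per degree of freedom from 17.6 to 164.5.

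The members and the 34 gene lists were chosen with earlier results of these data known. The rule for named genes takes at most 4 genes of each list with the smallest p on d10, a fixed set of marker genes, and the largest changes past the threshold. It allows 152 genes. The text takes its genes from 73 of these, a selection made with their values known, and genes outside the rule are said to be so. Some genes of the rule are not reported here. Among 86 genes checked, 24 have an antisense overlap, 1 has a same-strand overlap, and 9 share a near-identical stretch (100 bases at 95% identity, BLAST 2.17.0). DESeq2, other scaling factors (RLE, upper quartile) and filters on low counts, a replicate block, a fit of 30 libraries, a minimum change of 1.5-fold and the omission of single libraries were tried as alternatives. DESeq2 without Lean mouse 1 was added after seeing the data.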

Additional observations from a re-analysis of the deposited data

Results flagged for a closer look

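The diet difference (log2, DIO minus Lean) changed between d7 and d10 for 283 of 16348 genes, by the test of the change itself in edgeR with Benjamini-Hochberg adjustment. Of the 83 genes followed for the text, 36 were among them, 26 downward and 10 upward, with adjusted p from 0.0266 to 0.0491 in edgeR. The 83 were chosen largely by small p on d10 or by passing this same test. Their share of calls follows from that choice and is no result about them. The sign was the same in all 12 fits that left out 1 library, but 6 of those fits called 0 genes. Genes already past the threshold seldom change sign when 1 library is dropped, so the kept sign is no separate support.

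Among genes of cartilage matrix, the change was -8.34 for Ucma, -6.64 for Epyc, -5.59 for Col9a3, -5.52 for Matn3, -5.05 for Col2a1, -4.98 for Col9a2, -4.96 for Acan, -4.88 for Col9a1, -4.83 for Clec3a and -3.16 for Col27a1. For regulators and growth factors it was -4.72 for Gdf5, -3.78 for Sfrp5, -3.68 for Sox9, -2.71 for Adm, -2.66 for Peg3, -1.75 for H19 and -1.39 for Penk. For enzymes and collagen processing it was -3.84 for P3h2, -3.44 for Pcolce2, -3.36 for Aldh1a3, -3.32 for Papss2 and -2.30 for Pfkl. It was -5.91 for Meltf, -3.51 for Scube1 and -2.26 for Col6a1. The calcium-binding gene Ocm had -6.17 with at most 4.22 CPM in any d10 library. Upward were Adipoq with 3.91, Mmp12 with 3.63, Cxcl9 with 3.62, Sh2d2a with 3.55, Ifi213 with 3.43, Ciita with 3.05, Bglap with 2.90, Dkk1 with 2.21, Pparg with 2.02 and Acp5 with 1.53.

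Adm2 (-6.27) and 2610528A11Rik (-6.18) also passed in edgeR, but were under the filter on d10. H19, Penk, Meltf, Scube1, Aldh1a3 and Col27a1 lie outside the naming rule. Mmp12, Ciita, Penk and H19 overlap other genes on the opposite strand, so their counts are uncertain if strand was not used. H19 also overlaps Mir675 on the same strand. Ifi213 shares a near-identical stretch with Ifi208, and Mmp12 with Sult2a8. Sh2d2a and Ifi213 had at most 4.74 and 5.09 CPM in any d10 library.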

How the results depend on the processing

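On d10 the edgeR test called 0 genes with RLE or upper-quartile factors, a 0.5 CPM filter, a 1.5-fold threshold or the replicate block. It called 29 with no filter but 1 count and 3 with all 30 libraries in 1 fit, and DESeq2 called 56. Leaving out each library gave 0 to 10 genes, with 10 only without Lean mouse 1, and DESeq2 without that library, chosen after seeing the data, gave 107, of which 27 were shared with the 56. For the change from d7 to d10, DESeq2 called 923, no filter but 1 count 591, all 30 libraries 902 and the replicate block 0, and leaving out each library gave 0 to 511. The cause was not tested. Replicate numbers did not pair the mice on d10 (correlations of same-numbered deviations -0.03, 0.19 and -0.04).

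Leaving out each library, list medians ran from -3.23 to -1.74 for cartilage collagens, -2.49 to -1.26 for cartilage matrix proteins, -0.82 to -0.27 for chondrocyte regulators, -0.70 to -0.27 for cholesterol synthesis and 0.29 to 2.71 for erythroid genes. The highest erythroid value was without Lean mouse 2, and the others moved most without Lean mouse 1. Of 996 gene values under alternatives, 989 kept their direction. The others were in Acp5 (-0.040 to 0.18), Bglap (-0.039 to 0.52), Mmp13 (-0.22 to 0.062) and Runx2 (-0.066 to 0.20), all from the fixed set of marker genes. Most other genes were chosen by small p in these same libraries, which favours a kept direction. The count is thus no separate support for them.

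Lep and BC048679 had few reads in Lean mice, where counting error is large, and the spread between 3 mice sets the error of the other genes.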
